A study of Homo sapiens with 54 samples.

Results

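Mixed cultures differentiated towards striatal projection neurons were compared after repeated exposure to a high dose of dopamine. The comparison set 3 libraries of H9 hMSN-like cells, collected 1 h after the last of 5 daily doses of 1 mM dopamine (Chronic 1 h), against 3 libraries of the same cells given PBS. The 6 libraries were chosen by their labels alone, out of 54 labelled in the series, of which 26 entered a result given here, and no measured value entered the choice. The series also holds acute 1 mM dopamine at 1 h and 24 h, chronic 1 mM dopamine at 24 h, a separate experiment with a 5 Day dopamine schedule and an ascorbic acid (AA) vehicle, and the same acute and chronic schedules at 1 uM with their own PBS libraries. H9 (WA09) is an established human embryonic stem cell line, and every library came from it, so 1 genotype was examined. The cells were differentiated towards medium spiny neurons, the principal neurons of the striatum, and are called hMSN-like because the cultures hold other cell types as well.

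Chronic cells were dosed up to day 50 in vitro and incubated with dopamine for 1 h before extraction, whereas acute cells were dosed on day 45. Between chronic doses the medium was replaced with maturation medium. The sources used here do not give the day of collection of the PBS wells or whether they received ascorbic acid, the antioxidant in which dopamine was dissolved. Dopamine, its vehicle, the repeated change of medium and culture age therefore cannot be told apart in Chronic 1 h against PBS. The 5 Day libraries, by contrast, had the ascorbic acid vehicle as their control, and 2 of these libraries were analysed here. Nothing in the labels says that replicates were separate differentiations, so the p-values measure the spread between these samples, which may be technical.

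Dopamine acts on D1-class receptors, which raise cAMP, and on D2-class receptors, which lower it, and in striatal neurons a rise in cAMP and calcium switches on immediate early genes such as FOS and EGR1 within minutes. These genes need no new protein synthesis for their induction and are themselves mostly transcription factors. At high concentration dopamine also oxidises to quinones and peroxide, and cells answer oxidative and metal stress through the transcription factors NRF2, ATF4 and MTF1. Hypoxia-inducible factor (HIF) is a further stress regulator, which is destroyed when oxygen is present and drives glycolysis and blood vessel growth when it is not.

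The 6 libraries were of like depth, with 20431182 to 22152347 gene reads in PBS and 20792763 to 21473289 in Chronic 1 h. Reads in introns made up 19.5 to 21.8% of the PBS and 20.6 to 20.9% of the Chronic 1 h libraries, and mitochondrially encoded genes made up 2.91 to 3.19% and 3.14 to 3.28%. Pearson's r of log2 CPM, across genes, was 0.9947 to 0.9953 within PBS, 0.9955 to 0.9956 within Chronic 1 h and 0.9905 to 0.993 between the groups. Of 12 marker genes of medium spiny neurons, 10 did not pass the test, ARPP21, a cAMP-regulated phosphoprotein of striatal neurons, rose by 0.26 (log2) and PPP1R1B, which encodes the dopamine-regulated phosphatase inhibitor DARPP-32, fell from 22.2 ± 2.15 to 11.98 ± 3.33 TPM (log2 change -0.90 ± 0.15 SE, adjusted p = 0.00263). All 12 markers exceeded 1 TPM in at least 1 group, and their summed level was 138 to 157 TPM in PBS and 129 to 141 TPM in Chronic 1 h. The cultures also held proliferating, astrocyte and choroid plexus marker transcripts, whose values are given beside the genes they moved with. Glutamatergic markers summed to 1720 to 1905 TPM in PBS and 1484 to 1791 TPM in Chronic 1 h. The microglia and blood list summed to at most 3.98 TPM and the pluripotency list to at most 2.24 TPM in any library. In bulk libraries fewer cells of a type and less RNA per cell cannot be told apart.

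After chronic dopamine immediate early genes and metal and oxidative stress genes were higher than in PBS, while HIF targets, glycolytic genes, sterol synthesis genes and markers of proliferating cells were lower. A gene was called differentially expressed (DEG) when its adjusted p was under 0.05 (edgeR quasi-likelihood test, Benjamini-Hochberg), its level changed by 1 log2 unit or more, and its mean level reached 1 TPM, the length-corrected share of transcripts, in the higher group. Of 25000 genes tested, 256 were DEGs with a higher level in Chronic 1 h (1.02%) and 80 with a lower level (0.320%). Without the fold and TPM conditions, 2581 genes (10.3%) passed upwards and 1822 (7.29%) downwards. Among the higher DEGs 177 were protein coding and 74 lncRNAs, and among the lower DEGs 47 and 29. The median log2(fold change) was 1.34 for higher and -1.24 for lower DEGs, and 45 of the higher but 6 of the lower DEGs changed at least 4-fold.

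The TPM ranges of the groups did not overlap for 235 of the 256 higher DEGs, against 19.6% of all tested genes lying wholly higher, and for 65 of the 80 lower DEGs, against 11.8% lying wholly lower. Genes named for their fold or TPM difference were chosen among DEGs whose groups did not overlap, so their separation is a condition of the choice. When the model also held the acute and 24 h libraries, which changes the estimate of spread, 107 DEGs and 258 genes at adjusted p under 0.05 were left, of which 104 of the 107 were among the 336 DEGs of the 2-group model. In that model 15 of the named genes that passed with the 2 groups alone no longer did, among them ARRDC3 (0.423), VEGFA (0.117), GADD45G (0.0671) and BNIP3 (0.0515), with log2 values of 1.25, -1.27, 1.52 and -1.17. The counts given further on are those of the 2 groups alone unless stated. Counts of list members higher or lower are at adjusted p under 0.05, to be read beside 10.3% of all tested genes higher and 7.29% lower. These shares are no background for counts with all conditions in the model. Those counts are to be read beside the 258 genes that passed there in both directions together.

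**Figure D1:**
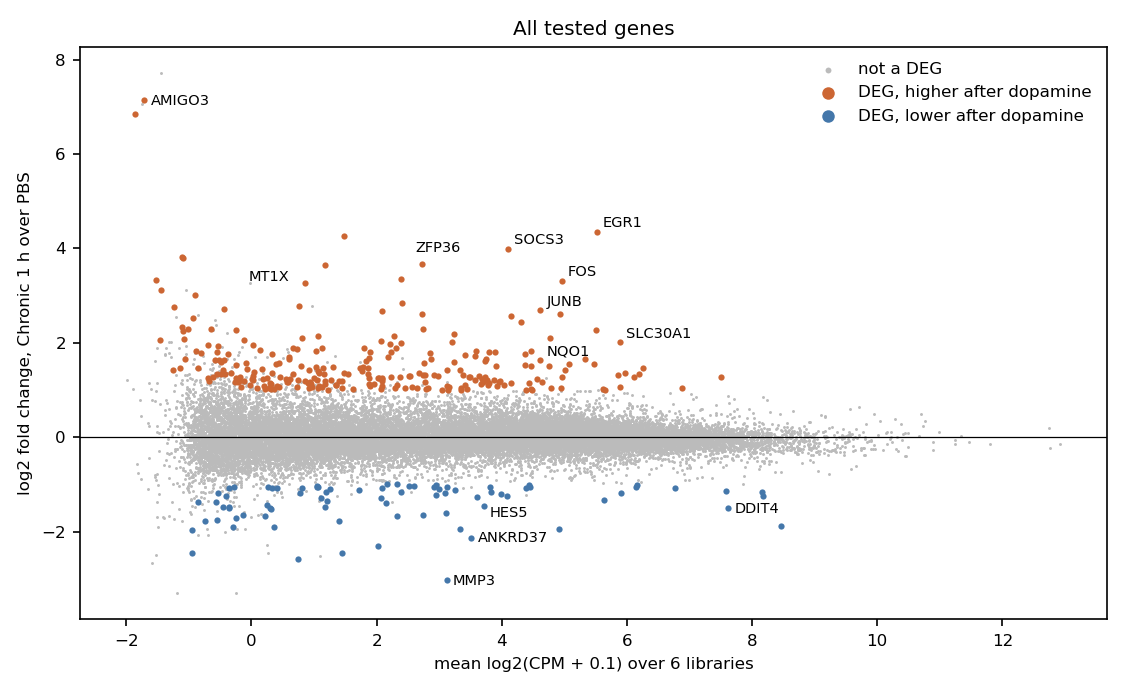
Every tested gene is drawn by its mean log2(CPM + 0.1) over the 6 libraries (x axis, CPM being reads per library scaled to the same total) and its log2(fold change) of Chronic 1 h over PBS (y axis), with higher and lower DEGs coloured. The 256 higher DEGs reach larger changes than the 80 lower DEGs, and EGR1 (4.35) and SOCS3 (4.00) stand far above genes of like abundance.

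Immediate early transcription factors were higher in Chronic 1 h, 21 of 28 passing upwards. EGR1, a zinc finger factor (chromosome 5, 138465479 to 138469303, GRCh38), measured 19.2, 13.9 and 17.8 TPM in the PBS libraries and 332, 370.5 and 344 TPM in the Chronic 1 h libraries. Every treated library was thus far above every control, and the log2(fold change) was 4.35 ± 0.11 (SE, adjusted p = 1.01e-08). FOS, the partner of JUN in the AP-1 factor (chromosome 14, 75278826 to 75282230), rose from 16.7, 12.6 and 19.1 TPM to 157, 164 and 168 TPM (log2 3.32 ± 0.12, adjusted p = 1.19e-07). FOSB, whose long-lived splice product accumulates in striatum under repeated stimulation, stood at 0.332, 0.438 and 0.988 TPM in PBS and 8.21, 8.53 and 5.68 TPM in treated cells (log2 3.65 ± 0.32, adjusted p = 5.18e-05). The FOSB groups did not overlap, but its level stayed below 9 TPM.

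The promoters of EGR1 and FOS are shown because these genes carry the classical elements for cAMP and growth factor signalling. Each sequence runs from 250 bases before to 50 bases after the RefSeq start (GRCh38.p14, strand of the gene), and capitals mark the CArG box, bound by serum response factor, and the CRE half-site TGACG, bound by CREB family factors, both searched on both strands. The EGR1 window is chr5:138465229-138465528 on the plus strand and the FOS window is chr14:75278578-75278877 on the plus strand.
EGR1: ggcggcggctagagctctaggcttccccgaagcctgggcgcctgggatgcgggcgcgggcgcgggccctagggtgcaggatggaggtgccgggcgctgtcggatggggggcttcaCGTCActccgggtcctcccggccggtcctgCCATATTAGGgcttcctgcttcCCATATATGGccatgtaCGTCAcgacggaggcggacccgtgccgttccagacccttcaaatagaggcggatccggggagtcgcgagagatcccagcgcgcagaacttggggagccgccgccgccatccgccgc
FOS: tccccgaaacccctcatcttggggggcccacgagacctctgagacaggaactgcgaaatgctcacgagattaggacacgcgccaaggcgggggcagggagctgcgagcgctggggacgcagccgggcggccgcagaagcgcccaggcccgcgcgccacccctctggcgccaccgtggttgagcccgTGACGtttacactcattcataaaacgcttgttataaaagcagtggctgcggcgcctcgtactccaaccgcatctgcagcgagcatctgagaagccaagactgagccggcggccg
The EGR1 window held 2 CArG boxes and 2 half-sites, and the FOS window 1 half-site and no CArG box. Sequence outside these windows was not searched, so an element further upstream would be missed. Over all 27305 promoters of the same length, 1.29% held a CArG box and 25% a TGACG half-site, which is also contained in the full CRE. Among promoters matched to 14671 of the 25000 tested genes these shares were 1.13% and 30.4%. A match is a run of letters and was not examined for binding.

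The other EGR genes moved with EGR1. EGR3, a further member of the family, went from 0.733, 0.579 and 0.545 to 12.8, 13.2 and 8.87 TPM (log2 4.25 ± 0.22, adjusted p = 1.9e-06). EGR2 rose by 2.62 on all its gene reads and by 5.62 on exon reads alone, from 0.387 ± 0.0763 to 20.01 ± 2.00 TPM (SD, n = 3). EGR4 had 5 reads in the PBS libraries together and 19 to 30 reads in each Chronic 1 h library. JUNB, an AP-1 subunit, was at 27.8, 29.2 and 26.4 TPM in PBS and 184, 191 and 166 TPM in Chronic 1 h (log2 2.69 ± 0.08, adjusted p = 1.32e-08). ATF3, a stress-induced repressor, rose by 2.10, KLF4 by 1.81 and IER2 by 1.34, all with groups that did not overlap. Of the 28 genes of the immediate early list tested, 21 rose, 1 fell and 6 did not pass, with a median log2(fold change) of 0.86 against -0.0035 over all tested genes, and 10 rose when the other conditions shared the model.

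Not all members rose. NR4A2, an orphan nuclear receptor, was the member that fell, from 25.7, 28.4 and 29.6 to 15.6, 14.3 and 17.7 TPM (log2 -0.82 ± 0.08, adjusted p = 9.05e-05). NR4A1, its relative and a usual striatal immediate early gene, measured 13.97, 13.9 and 15.8 TPM in PBS and 19.9, 23.2 and 15.04 TPM after dopamine and passed narrowly on all reads (log2 0.39, adjusted p = 0.049) but not on exon reads (adjusted p = 0.0587). NPAS4, which answers to calcium entry in neurons, had a log2(fold change) of 0.83 ± 0.54 (adjusted p = 0.341), with PBS replicate 3 above every treated library.

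Genes that limit signalling and remove short-lived mRNA rose alongside. ZFP36 encodes tristetraprolin, which destabilises AU-rich mRNAs, and it went from 5.47, 4.18 and 4.17 TPM to 62.2, 60.5 and 51.5 TPM (log2 3.68 ± 0.13, adjusted p = 6.1e-08). TENT5B, a noncanonical poly(A) polymerase, rose from 3.98, 3.88 and 2.51 to 26.5, 34.5 and 25.9 TPM (log2 2.84). Among 11 regulators of mRNA decay and RNA tails 6 rose and none fell, with a median of 0.30, and 2 rose with all conditions in the model. In the ERK feedback list, 13 of 20 genes rose and none fell (median 0.46), though only 2 rose with the other conditions in the model. DUSP5, a nuclear ERK phosphatase, was its single DEG, at 24.9, 19.3 and 26.9 TPM in PBS and 71.99, 74.95 and 57.4 TPM in Chronic 1 h. DUSP1 rose by 0.97 and DUSP14 by 0.52, with a DUSP14 adjusted p of 0.00748.

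GADD45 genes, which encode small stress sensors linked to growth arrest and DNA demethylation, all rose. GADD45B measured 5.31, 4.67 and 2.10 TPM in PBS and 39.4, 47.8 and 38.3 TPM in treated cells (log2 3.35 ± 0.22, adjusted p = 8.58e-06). GADD45G, far more abundant, went from 75.3 ± 4.15 to 224 ± 25.2 TPM (mean ± SD, n = 3 each, log2 1.55), and GADD45A rose by 1.00. CDKN1A, the p53-induced cell cycle inhibitor p21, rose from 256 ± 26.3 to 426 ± 67.7 TPM (log2 0.73, adjusted p = 0.000973). Of the 18 GADD45 and p53 genes 15 rose and none fell (median 0.50), and 2 of the 18 rose with all conditions in the model.

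Activity-dependent synaptic genes changed less evenly. ARC, whose product removes AMPA receptors from synapses, rose from 12.7, 13.4 and 11.2 to 83.1, 77.3 and 65.4 TPM (log2 2.57 ± 0.10, adjusted p = 2.79e-07). NPTX2, a secreted pentraxin that clusters AMPA receptors, rose by 0.90 on all reads and 0.45 on exon reads. BDNF, at 3.05 ± 0.738 TPM in PBS and 3.31 ± 0.206 TPM in Chronic 1 h, and VGF, at 180.3 ± 19.1 and 179.5 ± 19.3 TPM, did not pass (adjusted p = 0.555 and 0.94). In total 9 of the 22 listed activity genes rose and 1 fell, and with all conditions in the model 1 rose and none fell, while of 21 cAMP and CREB responsive genes 5 rose, 1 fell and the median was -0.08. Among 19 SRF and actin genes 8 rose and none fell, led by the secreted matricellular genes CCN1 (log2 1.82) and CCN2 (log2 1.51), and SRF itself rose by 0.89.

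**Figure D2:**
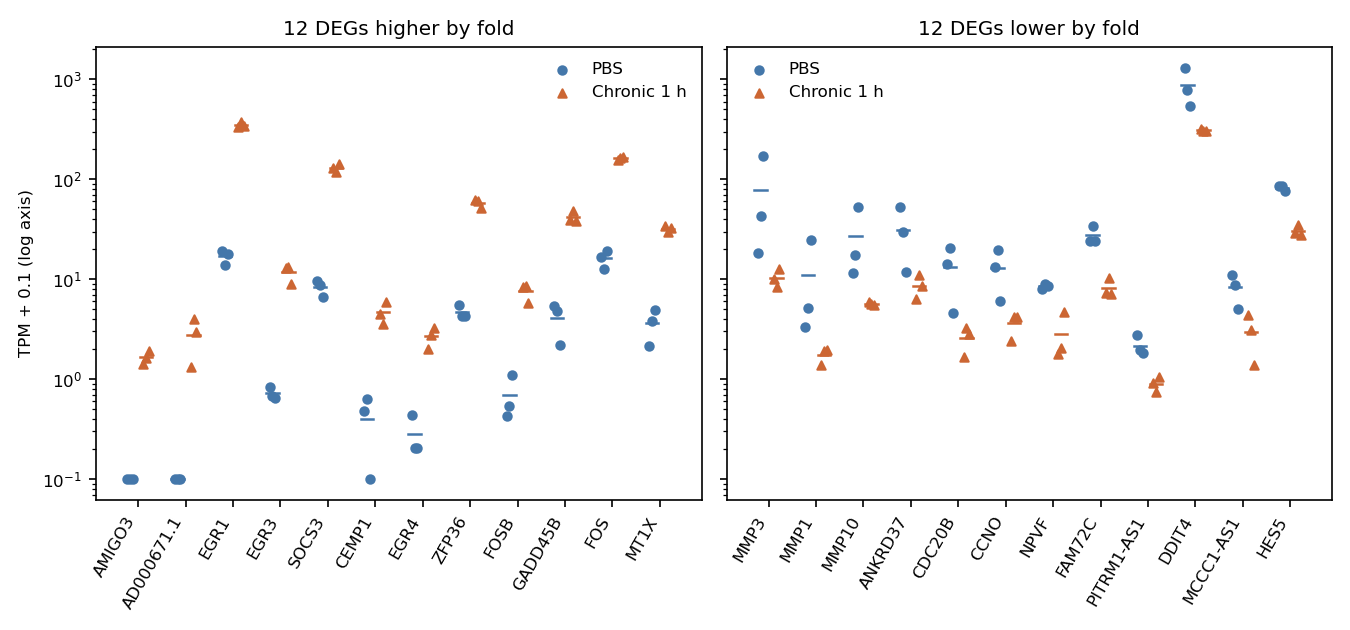
TPM + 0.1 in each of the 6 libraries is drawn on a log axis for the 12 higher and 12 lower named DEGs with the largest fold changes, PBS as circles, Chronic 1 h as triangles and short lines at the group means. EGR1 lies between 332 and 370.5 TPM in Chronic 1 h and below 20 TPM in PBS, whereas MMP3 is spread from 18.04 to 172 TPM within PBS.

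Genes that answer to cytokines were looked at next, and no fixed list holds all of those named here. SOCS3, the inducible inhibitor of JAK-STAT3 signalling (chromosome 17, 78356778 to 78360077), measured 9.44, 8.62 and 6.48 TPM in PBS and 129.5, 119.5 and 142 TPM in Chronic 1 h (log2 4.00 ± 0.11, adjusted p = 1.29e-08). The treated libraries all lay more than 10-fold above the controls. CEBPD, SERPINA3, CISH, IRF1, CCL2 and STAT3 were looked at after their values had been seen. CEBPD, an acute-phase transcription factor, rose from 2.73, 3.10 and 1.39 to 19.2, 18.1 and 15.6 TPM, and IRF1, an interferon-response factor, from 1.39, 0.937 and 0.994 to 6.83, 6.97 and 7.48 TPM. CISH, a SOCS family member, rose by 1.89, CCL2, a monocyte chemokine, by 2.29 and STAT3 by 0.37, the last to 87.6 ± 6.46 TPM from 67.5 ± 1.46 TPM. SERPINA3, an acute-phase protease inhibitor made by reactive astrocytes, rose from 7.01, 7.97 and 10.6 to 35.6, 40.2 and 36.8 TPM (log2 2.45), but only 10.9% of its reads were unique to one gene.

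Astrocyte markers were followed beside these genes. GFAP, the intermediate filament of astrocytes, went from 12.4, 10.7 and 8.39 TPM to 36.4, 33.5 and 29.1 TPM (log2 1.65 ± 0.12, adjusted p = 1.54e-05). Of 6 astrocyte markers 2 rose, none fell and 4 did not pass, and their summed level was 202 to 215 TPM in PBS and 246 to 264 TPM in Chronic 1 h. Their part in the cytokine response values was not tested. The inflammatory and NF-kappaB list had 6 of 15 genes higher, none lower and 9 not passing, while NFKBIA, the feedback inhibitor of NF-kappaB, had a log2(fold change) of 0.27 (adjusted p = 0.101). IL6, IL1B, TNF and CXCL8 were not tested, each having at most 10 reads in any library.

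Most metal-binding genes that could be tested rose. Metallothioneins are small cysteine-rich proteins that bind zinc and copper, and SLC30A1 exports zinc across the plasma membrane, both under the zinc-sensing factor MTF1. MT1X measured 2.03, 3.75 and 4.81 TPM in PBS and 34.2, 29.5 and 32.4 TPM after dopamine (log2 3.27 ± 0.25, adjusted p = 2.17e-05). MT2A, the most abundant of the inducible forms here, rose from 14.1, 12.8 and 15.8 to 42.1, 49.04 and 57.2 TPM (log2 1.81, adjusted p = 6.42e-05). SLC30A1 was held tightly within groups, at 24.5, 28.7 and 24.8 TPM against 108, 109.8 and 101.9 TPM (log2 2.01 ± 0.06, adjusted p = 2.75e-08). MT1E rose by 3.13 and MT1F by 1.58 from levels under 4 TPM.

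In contrast MT3, the neuronal form that metals induce poorly, fell from 12.1, 17.8 and 12.6 TPM to 6.48, 6.95 and 10.9 TPM (log2 -0.87, adjusted p = 0.0239). Of the 12 listed genes, 7 passed the filter on reads, of which 6 rose and 1 fell, or 3 and none with all conditions in the model, and 5 were left untested with at most 9 reads in a library. A gene could pass that filter through its reads in the treated group alone. When at least 10 reads were asked of every library, 4 genes were tested, of which 3 rose and 1 fell (median 1.13). Metallothionein genes are near-identical copies, and 73.3% of the MT1X reads were unique, so the split of reads among the MT1 genes is uncertain.

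The promoters of MT1X and SLC30A1 are shown for the metal response element that MTF1 binds, a motif chosen after the values were seen. Capitals mark its core, TGCACNC or TGCGCNC on either strand, in chr16:56682220-56682519 (plus strand) and chr1:211579112-211579411 (minus strand, printed in the direction of the gene).
MT1X: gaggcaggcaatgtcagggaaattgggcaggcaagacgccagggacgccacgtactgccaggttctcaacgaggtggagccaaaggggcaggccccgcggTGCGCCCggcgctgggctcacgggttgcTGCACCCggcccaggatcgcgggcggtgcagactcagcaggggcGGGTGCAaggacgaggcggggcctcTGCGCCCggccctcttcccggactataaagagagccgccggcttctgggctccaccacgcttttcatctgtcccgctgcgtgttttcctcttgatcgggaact
SLC30A1: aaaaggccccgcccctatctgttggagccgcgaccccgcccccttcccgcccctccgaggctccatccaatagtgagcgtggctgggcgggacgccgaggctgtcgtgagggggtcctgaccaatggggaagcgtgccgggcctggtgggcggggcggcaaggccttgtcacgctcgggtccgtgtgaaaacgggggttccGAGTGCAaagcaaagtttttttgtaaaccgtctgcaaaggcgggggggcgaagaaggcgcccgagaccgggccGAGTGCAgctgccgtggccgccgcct
MT1X held 4 cores and SLC30A1 held 2, while 29.3% of all promoters of this length held at least 1. Among promoters matched to 14671 of the 25000 tested genes the share was 35.8%, so the short core by itself is common.

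Antioxidant genes rose more modestly. NQO1, the quinone reductase that detoxifies dopamine quinones among others, measured 21.4, 19.3 and 22.5 TPM in PBS and 63.8, 83.1 and 62.9 TPM in Chronic 1 h (log2 1.63 ± 0.12, adjusted p = 1.51e-05). HMOX1, haem oxygenase 1, rose from 8.48, 5.71 and 5.86 to 17.7, 28.4 and 25.2 TPM (log2 1.33). The NRF2 list had 14 of 28 genes higher and none lower (median 0.29), 11 to 14 when any 1 library was left out and 5 with all conditions in the model. Its other risen members included SLC7A11, the cystine importer (log2 0.83), TXNRD1, thioredoxin reductase (log2 0.49), and SRXN1 (log2 0.86). The ferritin chains FTH1 and FTL, which store iron, rose by 0.50 and 0.56 from means of 2188 ± 100.2 and 2010 ± 90.7 TPM (SD, n = 3).

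Genes of the ATF4 and unfolded protein response moved the same way, 15 of 29 higher and none lower, with a median of 0.24. CHAC1, which degrades glutathione, rose from 17.6, 20.97 and 23.6 to 46.3, 52.9 and 48.8 TPM, and DDIT3, the stress factor CHOP, from 69.7, 56.7 and 52.3 to 128, 145 and 119 TPM. With all conditions in the model 2 of the 29 rose. Heat shock genes did not share this, with 2 of 22 higher and 2 lower, near the shares of all tested genes (10.3% and 7.29%). HSPA1A was at 10.7 ± 1.68 TPM in PBS and 14.9 ± 6.17 TPM in Chronic 1 h (adjusted p = 0.23).

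Hypoxia genes fell. ANKRD37, a HIF target of unsettled function, measured 52.3, 29.6 and 11.7 TPM in PBS and 6.29, 10.8 and 8.43 TPM in Chronic 1 h (log2 -2.13 ± 0.44, adjusted p = 0.00777). DDIT4, an inhibitor of mTORC1, fell from 1312, 792 and 537 TPM to 319, 303 and 308 TPM (log2 -1.51 ± 0.23, adjusted p = 0.00159). The PBS libraries differed from each other more than the treated ones, PBS replicate 1 being highest and replicate 3 lowest in both genes.

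VEGFA, the vascular growth factor, stood at 198, 178 and 114 TPM in PBS and 70.6, 67.2 and 70.5 TPM in treated cells (log2 -1.24 ± 0.14, adjusted p = 0.000332). BNIP3, a mitophagy receptor, fell from 289, 245 and 187 to 106, 91.9 and 149.8 TPM (log2 -1.15, adjusted p = 0.00125). Among the 31 HIF genes and targets 18 fell, 1 rose and 12 did not pass (median -0.49), and 8 of the 80 lower DEGs belonged to this list. CA9 and ADM, both strong HIF targets, had log2 values of -0.70 and -1.06 but did not pass (adjusted p = 0.13 and 0.12). The number lower was 11 to 24 when a library was left out, 11 without Chronic 1 h replicate 1 or replicate 2, 24 without PBS replicate 3, and 6 with all conditions in the model.

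Genes of glucose use fell as well. Of 21 glucose transport and glycolysis genes 17 fell and none rose (median -0.51), and all 21 had a negative change. SLC2A1, the glucose transporter GLUT1, measured 284, 201 and 97.3 TPM in PBS and 89.7, 105 and 80.6 TPM in Chronic 1 h (log2 -1.07 ± 0.28, adjusted p = 0.0219), so that the groups overlapped. PGK1, a glycolytic kinase, fell from 375 ± 59.9 to 247 ± 46.5 TPM (log2 -0.74), and LDHA (log2 -0.47) and PDK1, which keeps pyruvate out of mitochondria (log2 -1.06), fell too. The count was 11 without Chronic 1 h replicate 2, up to 18 without any other library, and 0 with all conditions in the model, where the median was -0.54.

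The promoters of ANKRD37 and BNIP3 are shown for the core of the hypoxia response element, ACGTG, in capitals on either strand, where CACGTG matches on both and counts as 2. The windows are chr4:185396591-185396890 (plus strand) and chr10:131981874-131982173 (minus strand, printed in the direction of the gene).
ANKRD37: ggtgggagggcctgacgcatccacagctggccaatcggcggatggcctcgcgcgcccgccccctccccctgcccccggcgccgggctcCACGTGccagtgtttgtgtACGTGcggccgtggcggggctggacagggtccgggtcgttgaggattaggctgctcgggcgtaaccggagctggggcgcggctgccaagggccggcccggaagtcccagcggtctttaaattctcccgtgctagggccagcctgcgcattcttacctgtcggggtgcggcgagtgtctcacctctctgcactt
BNIP3: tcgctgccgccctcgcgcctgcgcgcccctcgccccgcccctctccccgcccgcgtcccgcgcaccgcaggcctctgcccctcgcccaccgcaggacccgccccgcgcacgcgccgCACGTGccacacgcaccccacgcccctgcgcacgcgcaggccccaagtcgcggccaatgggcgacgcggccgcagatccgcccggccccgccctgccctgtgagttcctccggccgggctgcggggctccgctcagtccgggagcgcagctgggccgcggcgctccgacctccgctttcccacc
ANKRD37 held 3 matches and BNIP3 held 2. RefSeq promoters were matched for 27 of the 31 genes, of which 12 (44.4%) held the core, against 21.6% of all promoters, and the list is made of genes known to answer to HIF. Among promoters matched to 14671 of the 25000 tested genes the share was 24.7%.

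Genes of cholesterol and fatty acid synthesis were evenly lower in mRNA, and the synthesis itself was not measured. Of 31 genes 27 fell, none rose, and all 31 had a negative change (median -0.43). HMGCS1, which starts the mevalonate pathway, fell from 525, 578 and 579 TPM to 381, 342 and 309.6 TPM (log2 -0.78 ± 0.08, adjusted p = 0.000103). Its groups did not overlap, and none of the 31 genes was a DEG.

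INSIG1, the sterol sensor that retains SREBP (log2 -0.74), SQLE, squalene epoxidase (-0.64), and SCD, stearoyl-CoA desaturase (-0.61), fell with them. Leaving out any 1 library gave 21 to 28 genes lower, while 3 were lower with all conditions in the model at a median of -0.46.

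**Figure D3:**
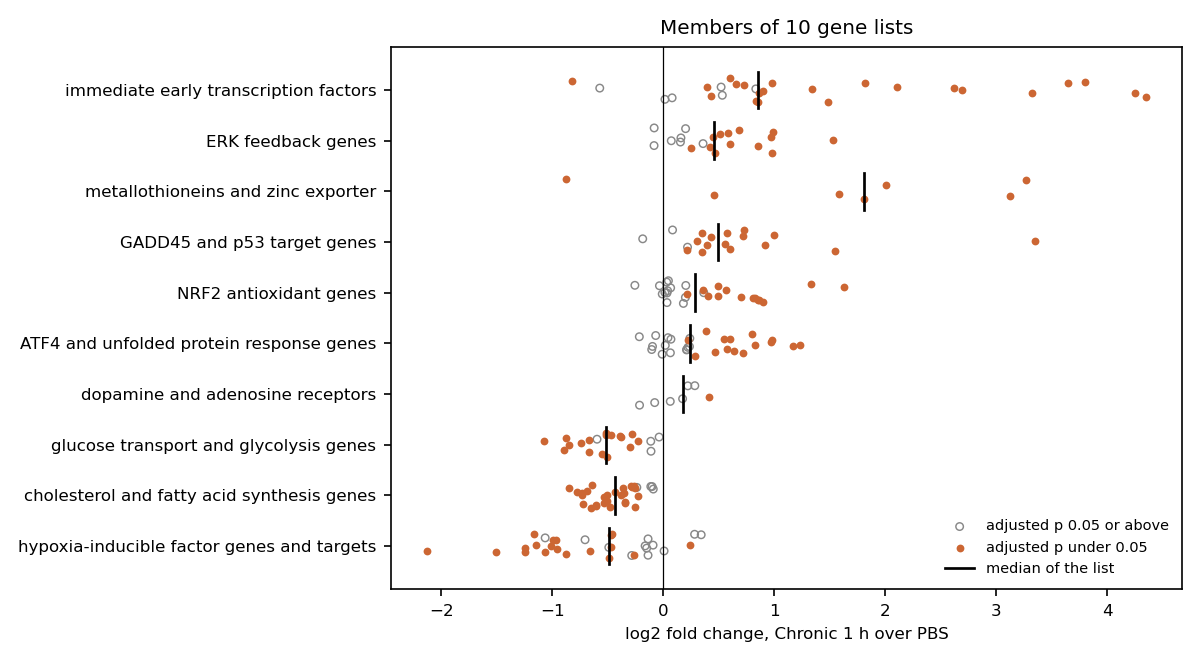
Each gene list is drawn for 10 lists with its members' log2(fold change) of Chronic 1 h over PBS as points on the x axis, filled where the adjusted p was under 0.05 and open otherwise, and a bar at the list's median. The immediate early and metallothionein lists lie to the right of 0, with medians of 0.86 and 1.81, and the HIF, glycolysis and cholesterol lists to its left, with medians of -0.49, -0.51 and -0.43. The metallothionein median was 1.13 over the 4 members with at least 10 reads in every library.

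HES5 and markers of proliferating cells were lower, while radial glia and progenitor markers went both ways, 2 of 9 higher and 4 lower. HES5, the Notch effector that keeps neural progenitors undifferentiated, measured 86.2, 85.2 and 76.7 TPM in PBS and 28.7, 34.4 and 27.4 TPM in Chronic 1 h (log2 -1.45 ± 0.10, adjusted p = 1.36e-05). HES1 fell (log2 -0.55) while the Notch ligand DLL1 rose by 0.36, and over 18 Notch genes 3 rose and 6 fell. Leaving out 1 library gave 2 to 6 Notch genes lower, 2 of them without Chronic 1 h replicate 3. Of 8 markers of proliferating cells 7 fell (median -0.54), 1 of them with all conditions in the model, including TOP2A, DNA topoisomerase II, from 289.9, 279 and 291 to 199, 189.6 and 206 TPM, and MKI67, the Ki-67 antigen (log2 -0.44). These markers summed to 1190 to 1253 TPM in PBS and 954 to 992 TPM in Chronic 1 h, and their part in the HES5 value was not tested.

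SOX21, a progenitor transcription factor, went the other way, from 35.04, 34.1 and 42.98 to 203, 172 and 174 TPM (log2 2.28 ± 0.11, adjusted p = 1.07e-06). CRABP1, a retinoic acid binding protein of immature neurons, fell from 198, 215 and 134 TPM to 86.05, 90.5 and 94.8 TPM (log2 -1.01, adjusted p = 0.000693). FAM72C, one of several near-identical copies with 27.1% unique reads, fell from 27.3 ± 6.04 to 8.08 ± 1.75 TPM. ARRDC3, an arrestin-related adaptor of receptor trafficking, rose from 149.7, 116 and 90.6 to 274, 269 and 339 TPM (log2 1.27 ± 0.15, adjusted p = 0.000297). PBS replicate 3 was its lowest control.

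Several of the deepest falls rested on uneven PBS libraries. MMP3, a secreted matrix protease, measured 18.04, 42.7 and 172 TPM in PBS and 9.97, 8.24 and 12.6 TPM in Chronic 1 h (log2 -3.04 ± 0.70, adjusted p = 0.013). MMP1, interstitial collagenase, had 3.21, 5.05 and 24.6 TPM in PBS and 1.28, 1.81 and 1.88 TPM in treated cells (log2 -2.57 ± 0.68, adjusted p = 0.024). PBS replicate 3 was highest for both and for MMP10, another member of the family, at 11.5, 17.4 and 52.3 TPM against 5.76, 5.50 and 5.47 TPM. The settings tried, 6 of which left out 1 library, gave log2 values of -3.51 to -1.67 for MMP3, -2.99 to -1.22 for MMP1 and -2.69 to -1.35 for MMP10. MMP3 no longer passed without Chronic 1 h replicate 1 or 2 (adjusted p = 0.0513 and 0.0671), MMP1 without any 1 Chronic 1 h library (0.0771 to 0.0858) and MMP10 without Chronic 1 h replicate 2 (0.0534). With all 5 conditions in the model MMP3 and MMP1 did not pass either (0.077 and 0.11).

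CDC20B and CCNO, which sit side by side on chromosome 5 and serve the making of multiple cilia, were lower in Chronic 1 h. CDC20B went from 13.1 ± 8.12 to 2.48 ± 0.803 TPM (SD, n = 3) with PBS replicate 3 the lowest control, and CCNO from 13.2, 19.7 and 5.89 to 2.33, 4.11 and 4.12 TPM (adjusted p = 0.00418 and 0.00648). FOXJ1, the regulator of motile cilia, did not pass, at 32.6 ± 11.96 TPM in PBS and 23.7 ± 6.42 TPM in Chronic 1 h (adjusted p = 0.253). TTR, transthyretin of the choroid plexus, was looked at after its values had been seen and measured 1974, 2673 and 503 TPM in PBS and 352, 722 and 311 TPM in treated cells, with overlapping groups (log2 -1.88 ± 0.47, adjusted p = 0.0198). The 4 choroid and ependymal markers summed to 537 to 2790 TPM in PBS and 349 to 796 TPM in Chronic 1 h, 1 of the 4 fell and none rose, and their part in the cilia gene values was not tested. NPVF, a neuropeptide precursor, fell from 7.97, 8.78 and 8.38 to 1.70, 1.93 and 4.56 TPM, and the lncRNAs PITRM1-AS1 (log2 -1.52) and MCCC1-AS1 (-1.49) fell, the last not passing when PBS replicate 1 or 2 or Chronic 1 h replicate 2 or 3 was left out (adjusted p = 0.113 to 0.152).

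No dopamine receptor gene passed the test. DRD1 measured 2.35, 1.87 and 0.619 TPM in PBS and 1.51, 1.77 and 1.83 TPM in Chronic 1 h (log2 0.06 ± 0.38, adjusted p = 0.938), and DRD2 3.71, 2.60 and 2.60 against 4.12, 3.53 and 4.25 TPM (log2 0.28 ± 0.14, adjusted p = 0.209). DRD4 was the most abundant of the family at 11.9 ± 2.09 and 13.3 ± 1.42 TPM (adjusted p = 0.322), DRD3 stayed under 1.2 TPM (log2 -0.21 ± 0.17) and DRD5, with at most 15 reads in a library, was not tested. ADORA1, the adenosine A1 receptor, was the member of the receptor list that rose (log2 0.41, adjusted p = 0.00126). For ADORA2A, the adenosine receptor of indirect-pathway neurons, the log2 value was -0.08 ± 0.12, but 3.89% of its reads were unique.

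With an SE of 0.38 for DRD1, a change of the size measured for DUSP14 would not have been detectable at this depth. None of 14 dopamine synthesis, transport and breakdown genes passed in edgeR, where 1 had an unadjusted p under 0.05, nor did any of the 10 with an adjusted p in DESeq2. Without PBS replicate 3, 1 of the 14 was lower. Of 30 glutamate and GABA receptor genes 1 rose and 4 fell, among them GRIN1, the obligate NMDA receptor subunit, from 15.2, 12.3 and 14.1 to 9.64, 7.31 and 9.76 TPM (log2 -0.58, adjusted p = 0.00489), while GABRR2 had a log2 value of -0.02. In the striatal transcription factor list 4 of 24 rose and 3 fell, ISL1, which specifies direct-pathway neurons, being the lower DEG at 2.90, 3.19 and 4.07 against 1.44, 0.904 and 1.31 TPM. The 21 RGS, GRK and arrestin genes had 2 higher and 1 lower, and TAC1 and PENK, neuropeptides of the striatal pathways, had log2 values of -0.40 and -0.48 and did not pass (adjusted p = 0.101 and 0.152).

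The remaining lists are given by their counts at adjusted p under 0.05, where 10.3% of all tested genes were higher and 7.29% lower. A count near these shares is not a result about the list. Wnt genes had 4 of 44 higher and 7 lower, TGF-beta and BMP genes 8 of 43 and 3, collagens and matrix proteases 6 of 28 and 7, iron handling genes 4 of 14 and 0, neuropeptides 2 of 21 and 0, and mitochondrially encoded genes 3 of 13 and 0. Glutamatergic neuron markers had 2 of 7 lower, pan-neuronal markers 1 of 10, dopaminergic markers 2 of 5 and radial glia markers 2 higher and 4 lower of 9. Mesenchymal markers had 3 of 8 higher and 1 lower, oligodendrocyte lineage markers 2 of 5 higher, and interneuron, endothelial, microglial and pluripotency markers none in edgeR, with 2, 1, 0 and 0 at an unadjusted p under 0.05. DESeq2 called 1 interneuron and 1 endothelial marker lower.

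A few named genes were nearly absent from PBS. AMIGO3 had no read in any PBS library and 15 to 21 reads in each Chronic 1 h library, at least 5.91-fold higher against a floor of 3 reads per library. AD000671.1 likewise had no PBS read and 10 to 20 treated reads, at least 4.81-fold higher. CEMP1 had 5 reads in PBS together and 19 to 33 in each treated library. AMIGO3 and CEMP1 had 0% unique reads and both lie within other genes, so their reads cannot be told apart from those of their neighbours. The same holds for most reads of AD000671.1, of which 11.6% were unique and which 3 other genes with reads overlap. AMIGO3, AD000671.1 and CEMP1 each lost their call in 1 of the settings tried (edgeR adjusted p = 0.0887, 0.0528 and 0.176).

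Intron reads of most DEGs tested had the same direction as their total gene reads, of which they are a part. Intron reads come mostly from RNA not yet spliced and were tested separately, giving 2205 of 22032 genes higher (10.0%) and 1719 lower (7.80%). The DEGs were called on total gene reads, which include these intron reads. Their shared direction is thus partly fixed by the choice of genes and is given as a description. Of the higher DEGs 151 could be tested on introns, 147 had the same direction and 120 passed. All 48 lower DEGs tested on introns had the same direction and 37 passed. In ZFP36 the intron change was 4.11 and in SOCS3 4.71, and in the falling genes BNIP3 and HMGCS1 it was -1.69 and -1.42. EGR2, IER2 and HMOX1, singled out after their values were seen, rose on exon reads by 5.62, 1.46 and 1.79 but had intron values of -0.05, -0.19 and -0.13 that did not pass.

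Repeated exposure was next set beside a single exposure. Acute 1 h cells received 1 dose and were collected at the same interval, and the question is how the response at 1 h differs after 5 doses. In Chronic 1 h against Acute 1 h, 612 of 23836 genes were higher DEGs (2.57%) and 351 were lower DEGs (1.47%). Intron reads made up 12.3 to 13.2% of the Acute 1 h libraries, against 20.6 to 20.9% in Chronic 1 h. Values on exon reads are therefore given as well. The culture day also differed, so the number of doses, culture age and library make-up cannot be told apart in this comparison. The difference in intron share moves the log2 values of genes between all reads and exon reads, and its part in the counts was not tested.

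FOSB was lower in Chronic 1 h, at 76.5, 53.99 and 55.4 TPM in Acute 1 h and 8.21, 8.53 and 5.68 TPM in Chronic 1 h (log2 -3.45 on all reads and -3.15 on exon reads, adjusted p = 1.47e-06). CCN2, a target of SRF and YAP, measured 616, 483 and 535 TPM in Acute 1 h and 55.8, 80.3 and 38.2 TPM in Chronic 1 h (exon log2 -3.33). ACTA2, smooth muscle actin, was at 204, 147 and 157 TPM in Acute 1 h (exon log2 -2.04). These groups were far apart, and EGR3 (exon log2 -1.82), EGR4 (-2.42) and NR4A1 (-1.62) were lower in the same way. EGR1 and FOS were also lower, but by less, at -0.68 and -0.67.

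ARC and ZFP36 did not pass on exon reads (log2 -0.04 and -0.18, adjusted p = 0.696 and 0.113). Some genes were higher in Chronic 1 h than in Acute 1 h. In Acute 1 h GFAP was below every PBS library, at 6.57, 5.70 and 5.67 TPM (exon log2 of Chronic 1 h over Acute 1 h 2.36, adjusted p = 1.07e-08). SERPINA3 was at 10.9, 9.78 and 10.2 TPM there (1.77) and NQO1 at 32.96, 30.9 and 34.7 TPM (0.99). SOCS3, at 73.1, 85.2 and 97.3 TPM in Acute 1 h, was higher by 0.52 and MT1X by 0.92. AVIL, an actin-binding protein looked at after its values had been seen, was higher by 1.64.

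Of the 28 immediate early genes, 18 were higher in Chronic 1 h than 24 h after the last dose at adjusted p under 0.05. None were lower, and the median was 1.02. By the DEG rule, Chronic 1 h had 123 of 25081 genes higher than Chronic 24 h (0.490%) and 3 lower (0.0120%), 126 DEGs in all. That rule also sets fold and TPM conditions, so these shares are no background for the 18 genes. The share of all tested genes at adjusted p under 0.05 is not given for this comparison. The 18 of 28 is therefore a description and not a result about the list. Leaving out 1 library gave 64 (without Chronic 1 h replicate 3) to 198 (without Chronic 24 h replicate 3). FOS stood at 15.9, 16.1 and 13.5 TPM at 24 h (Chronic 1 h higher by 3.40, adjusted p = 5.32e-07), SOCS3 at 9.73, 6.31 and 7.01 TPM (4.11) and ARC at 12.2, 12.6 and 8.65 TPM (2.77). EGR1 was at 41.6, 42.1 and 22.8 TPM, and SLC30A1 at 31.1, 39.7 and 38.9 TPM.

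NQO1 was at 75.4, 62.5 and 90.3 TPM at 24 h and did not pass against Chronic 1 h (log2 -0.08 ± 0.16, adjusted p = 0.885). HMOX1 and FTH1, at 18.6, 14.4 and 24.5 and 3122, 3165 and 2966 TPM, did not pass either (adjusted p = 0.735 and 0.931). Among the lowered genes BNIP3 was at 98.5, 67.5 and 68.5 TPM, VEGFA at 68.2, 65.8 and 32.7 TPM and HES5 at 28.2, 38.7 and 47.8 TPM at 24 h, and none of these passed between the chronic times (adjusted p = 0.228, 0.526 and 0.514). The 1 mM comparisons share libraries, since Chronic 1 h enters each of them, so their values are set side by side without an overlap.

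**Figure D4:**
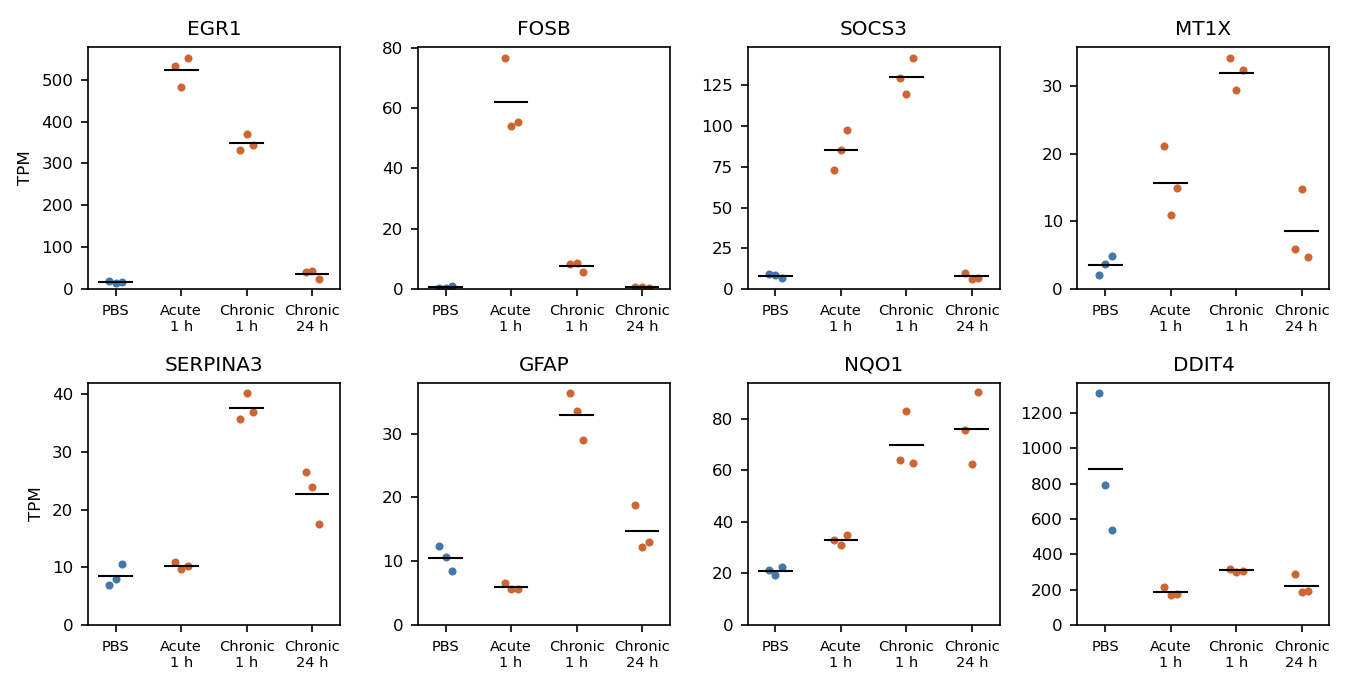
TPM is drawn for 8 genes in the PBS, Acute 1 h, Chronic 1 h and Chronic 24 h libraries, with a point per library and a line at each mean. FOSB is highest in Acute 1 h (53.99 to 76.5 TPM) and lower in Chronic 1 h (5.68 to 8.53 TPM), while NQO1 is at 62.9 to 83.1 TPM in Chronic 1 h and 62.5 to 90.3 TPM in Chronic 24 h.

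Experiments that share no library with this comparison were examined for the same genes. In 5 Day dopamine against its AA vehicle (2 and 3 libraries), 8 of 19887 genes were DEGs (0.0402%) and 2900 (14.6%) had an unadjusted p under 0.05. The DEG count was 0 without any 1 of the AA libraries, 156 without 5 Day replicate 2 and 494 without 5 Day replicate 3. Of the 256 higher DEGs 222 were tested there, 158 (71.2%) had the same direction against 50.7% of all genes positive, 59 had an unadjusted p under 0.05 and 4 passed with adjustment. Of 63 lower DEGs tested 35 (55.6%) were lower there, against 49.3% of all genes, and none passed in edgeR, while 8 had an unadjusted p under 0.05. Mitochondrially encoded genes took 6.43 to 12.3% of the 5 Day and 7.02 to 8.26% of the AA reads, and their part in these values was not tested.

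EGR1 measured 26.9, 28.6 and 35.01 TPM in AA and 245 and 189 TPM in 5 Day (log2 2.88 ± 0.22, adjusted p = 0.0206), and FOS 12.6, 12.8 and 13.4 TPM and 56.99 and 58.1 TPM (log2 2.19, adjusted p = 0.00922). CCN1 and EGR2 were the other DEGs that passed in the same direction (log2 1.99 and 4.31, adjusted p = 0.00975 and 0.0476). Of 27 immediate early genes tested there 26 had a positive change, with a median of 0.89. In contrast the NRF2 list had a median of -0.002, with NQO1 at 30.5, 35.1 and 35.6 TPM in AA and 30.2 and 36.5 TPM in 5 Day.

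All 31 cholesterol and fatty acid genes had a negative change in 5 Day as well (median -0.33), though HMGCS1 did not pass (log2 -0.27, adjusted p = 0.439). HIF targets had a median of -0.15, with VEGFA at 23.8, 22.7 and 14.8 TPM in AA. The difference between the effects of the experiments passed for 1035 of 26070 genes (3.97%), including 79 of the 256 higher and 13 of the 80 lower DEGs, which were selected on 1 of the effects compared. Leaving out 1 library moved this count between 164 (without Chronic 1 h replicate 2) and 9522 (without 5 Day replicate 3). SLC30A1 (difference 1.49, adjusted p = 0.00608), NQO1 (1.60, 0.00697), KLF15, a circadian and glucocorticoid-linked factor (1.67, 0.00643) and IQCN (1.74, 0.00697) rose more in Chronic 1 h against PBS.

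The third test was 1 uM dopamine on the chronic schedule, collected at 1 h, against its own PBS. There 37 of 18796 genes were DEGs (0.197%). Libraries of the same number deviated together in this experiment (correlations of 0.277, 0.348 and 0.15). Chronic 1 h replicate 3 did so more with PBS replicate 1 (0.378), so pairing by number is not settled. With the replicate number as a block 210 genes were DEGs. Without the block the count was 0 when any of 5 libraries was left out and 130 without 1 uM Chronic 1 h replicate 2. Of the higher DEGs 170 were tested, 140 (82.4%) had the same direction against 55.6% of all genes positive, and 9 passed (30 with the block). Of the lower DEGs 67 were tested, 50 (74.6%) were lower against 44.4% of all genes, and 1 passed (7 with the block). Mitochondrially encoded genes took 4.36 to 12.003% of the 1 uM PBS and 5.56 to 12.2% of the 1 uM Chronic 1 h reads. Replicate 2 was the highest in both groups, and the part of this share in these values was not tested.

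At 1 uM EGR1 measured 11.5, 6.89 and 11.9 TPM in PBS and 55.2, 49.97 and 55.5 TPM after dopamine (log2 2.59 ± 0.18, adjusted p = 0.0112). SOX21 went from 29.4, 22.9 and 29.2 to 149, 97.99 and 159.9 TPM (log2 2.48, adjusted p = 0.0112), a change that did not pass as different from that at 1 mM (difference -0.14 ± 0.26). GADD45G went from 14.9, 17.9 and 18.9 to 152, 66.5 and 125 TPM (log2 2.88, adjusted p = 0.0421). The immediate early list had 23 of 26 members with a positive change and a median of 1.08.

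Effects in the 1 mM and 1 uM experiments differed for some genes. The difference between the effects passed for 85 of 25158 genes (0.338%), including 11 of 254 higher and 1 of 80 lower DEGs, and moved between 5 (without Chronic 1 h replicate 2 or 3 at 1 mM) and 989 (without 1 uM Chronic 1 h replicate 2). With a block per replicate number in the 1 uM libraries alone 1412 genes passed, including 30 higher and 9 lower DEGs. With 1 block per number across both experiments 8 passed. ARRDC3 went from 109.8, 115 and 120.5 TPM to 15.1, 18.4 and 23.5 TPM at 1 uM, opposite to its rise at 1 mM (difference 3.81 ± 0.29, adjusted p = 0.000849). H2AC6, a replication-linked histone gene looked at after its values had been seen, was at 11.2, 15.4 and 14.2 and 6.92, 7.83 and 9.92 TPM at 1 uM but rose from 17.9, 15.7 and 13.8 to 56.8, 65.2 and 101.5 TPM at 1 mM (difference 4.43 ± 0.37, adjusted p = 0.00126).

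EGR1 (1.82), SOCS3 (2.42), ZFP36 (2.73), NQO1 (1.68) and SLC30A1 (1.38) rose more at 1 mM, also with the 1 uM block, with adjusted p without it of 0.0128, 0.0405, 0.0405, 0.0245 and 0.00702. With the block SOCS3 (log2 1.62, adjusted p = 0.0401) and SLC30A1 (0.69, 0.0288) were higher and H2AC6 (-1.72, 0.0299) lower within the 1 uM experiment, where none of them passed without it. The 1 mM and 1 uM arms were separate experiments with separate controls, so dose and experiment cannot be told apart. Across genes tested in both, Pearson's r of the log2 values was 0.552 over 237 DEGs and 0.267 over 18691 genes for 1 uM, and 0.259 over 285 DEGs and -0.0376 over 19679 genes for 5 Day, as a description, since genes are not independent replicates.

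**Figure D5:**
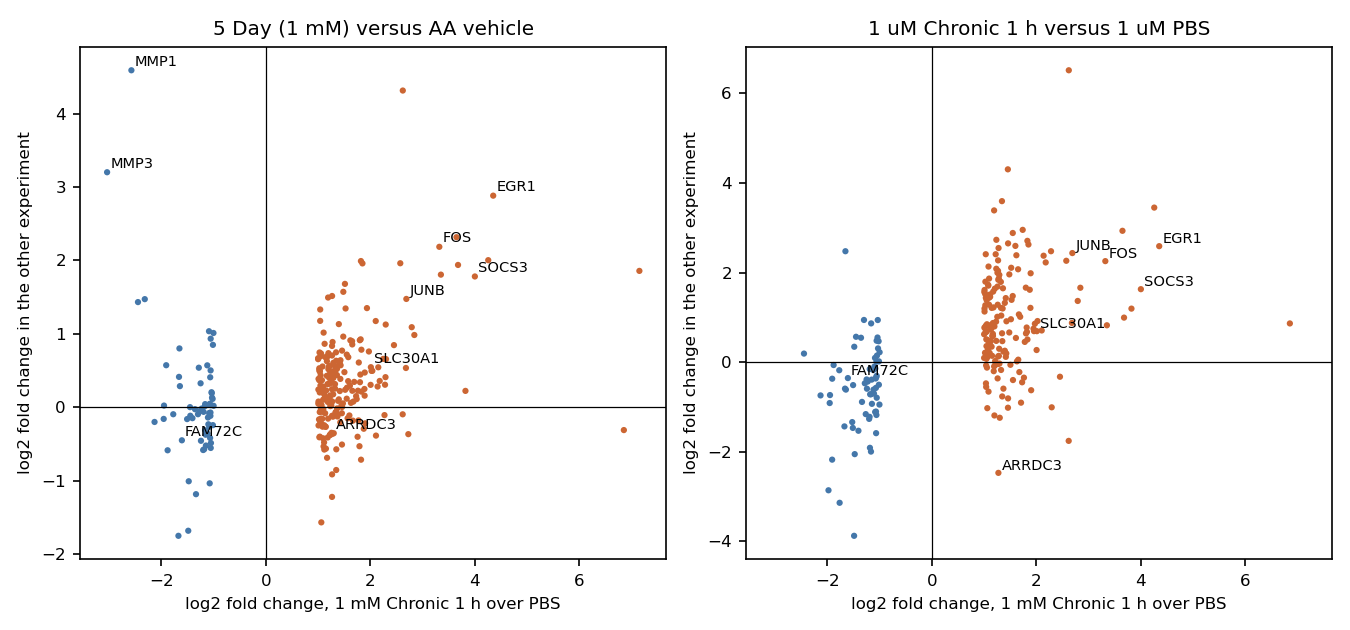
The log2(fold change) of each DEG in Chronic 1 h against PBS (x axis) is plotted against its log2(fold change) in 5 Day against AA and in 1 uM Chronic 1 h against 1 uM PBS (y axes). Of the higher DEGs, 158 of 222 lie above 0 in the 5 Day panel and 140 of 170 in the 1 uM panel, and ARRDC3 lies at -2.47 in the latter.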

How the data were processed

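RNA was sequenced from hMSN-like cells made from the H9 line, and one table per library was deposited, with 60676 genes each. The authors mapped reads with CLC Genomics Workbench to hg38 with an Ensembl annotation. The deposited counts are whole reads per gene (total, unique, exon), total gene reads including introns, and the authors' TPM values correct exon reads for exon length and give every library the same sum. Strand and the sequencing batch of each library are not given in the sources used here, so reads of overlapping genes cannot be separated. For 21617 genes the exon length is 0 and the TPM 0, so these could not be DEGs.

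Differences between Chronic 1 h and PBS were tested on total gene reads of these libraries alone, using R 4.3.3 and edgeR 4.0.16 (TMM, filterByExpr with a minimum of 10 and a total of 15, quasi-likelihood F test, Benjamini-Hochberg). SEs were derived from the size of the change and its F statistic. Intron reads are total gene minus total exon reads. Chronic 1 h against Acute 1 h or Chronic 24 h, 5 Day against AA, 1 uM Chronic 1 h against 1 uM PBS, and the difference of effects between experiments were tested likewise. DESeq2 1.42.0 served as an alternative. Pairing was checked by the correlation of same-numbered libraries' deviations from their group means. Same-numbered 1 uM libraries deviated together (0.277, 0.348 and 0.15), although replicate 3 correlated more with PBS replicate 1 (0.378). Pairing by number is thus not settled there, and blocked values stand beside the 1 uM results. The fits were tested on simulated data with known changes.

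Named genes (47) were, among DEGs whose libraries did not overlap between groups and leaving out clone-named genes, the 12 highest and 12 lowest by fold and the 6 highest and 6 lowest by TPM difference; genes the study names for RNA-seq (EGR1, FOSB, FOS, JUNB, ARC, GADD45B, TENT5B, MMP1, DUSP14, GRIN1 and GABRR2), the dopamine receptors and ADORA2A; and the 5 DEGs with the smallest adjusted p for the difference from 5 Day, 1 of which is not reported here. Clone names were taken as AC, AL, AP, AF, Z or LINC followed by digits, so AD000671.1, also a clone name, was kept. Members of 27 gene lists and 14 marker lists were named beside their counts. These genes and lists were chosen with earlier results of these data known. Promoters came from RefSeq (GRCh38.p14) with 27305 entries searched for motifs. Alternatives were other read types, normalization, filters and thresholds, DESeq2, a replicate block, a model with all 5 conditions and each library left out; list counts under these and at 24 h, the 1 uM alternatives and the metal element were added after seeing the data. The 6 libraries held 20431182 to 22152347 reads, and floors and read numbers cover counting error only. Figures used Python 3.11.15 and matplotlib 3.10.9. A 5 Day replicate 1 library was not analysed here.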

Additional observations from a re-analysis of the deposited data

Results flagged for a closer look

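Effects in 1 experiment differed from those in another for the results given here, by the test of the difference itself (edgeR quasi-likelihood, adjusted p). The effect of Chronic 1 h against PBS differed from that of 5 Day against AA for 1035 genes. It differed from that of 1 uM Chronic 1 h against 1 uM PBS for 85 genes, or 1412 with a replicate block in the 1 uM libraries.

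Against 5 Day the difference in log2(fold change) was 1.49 for SLC30A1, 1.67 for KLF15, 1.6 for NQO1 and 1.74 for IQCN. The matrix proteases, singled out after their values were seen, had differences of -7.16 for MMP1, -6.17 for MMP3 and -3.77 for MMP10. They were lower after chronic dopamine, and MMP3 measured 10.7 and 3.55 TPM in 5 Day against 0.888, 0.300 and 1.40 TPM in AA (adjusted p = 0.224 within that experiment). With each of the 11 libraries left out in turn, the difference no longer passed 5 times for MMP1 and 8 times each for MMP3 and MMP10, for example for MMP3 without 5 Day replicate 2 (adjusted p = 0.227).

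Against 1 uM dopamine the difference was 3.81 for ARRDC3, which fell at 1 uM and rose at 1 mM, and 4.43 for H2AC6, singled out after its values were seen. Both passed with each library left out in turn.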

How the results depend on the processing

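No named gene that passed changed direction under the alternatives tried, while DRD1 (-0.319 to 0.445), ADORA2A (-0.149 to 0.0115) and GABRR2 (-0.325 to 0.199), which never passed, had log2 values of both signs. The 336 DEGs became 107 with all 5 conditions of the 1 mM experiment in the model, 222 with the DESeq2 Wald test and 4152 with no threshold on fold change, and the 4403 genes at adjusted p under 0.05 became 258 with all 5 conditions. The cause of the smaller 5-condition counts was not tested. Of the DESeq2 calls 219 were among the 336, and exon reads gave 383 DEGs, 256 of them shared. Leaving out 1 library gave 265 to 395 DEGs, 2552 (without Chronic 1 h replicate 2) to 4695 (without PBS replicate 3) genes at adjusted p under 0.05, 2575 (without PBS replicate 2) to 3723 intron calls of 3924, 64 to 198 DEGs against Chronic 24 h, 0 to 494 DEGs for 5 Day, 164 to 9522 genes for the difference from 5 Day 5 to 989 for the difference from 1 uM and 0 to 130 DEGs at 1 uM itself, where 37 were called. Exon reads gave 34 DEGs for 5 Day and 45 genes for the difference from 1 uM. With a lone 5 Day library the spread is that of the AA libraries alone.

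Same-numbered Chronic 1 h and PBS libraries did not deviate together (correlations of -0.0237, 0.009 and -0.0197), and nor did Chronic 1 h with Acute 1 h or Chronic 24 h (-0.0561 to 0.0382). With 3 libraries per group these values do not settle whether the numbers pair the samples. With the replicate block the main comparison had 337 DEGs, 5 Day had 3, the difference from 5 Day 386 and the difference from 1 uM 8. Same-numbered 1 uM libraries deviated together (0.15 to 0.348), but replicate 3 did so more with PBS replicate 1 (0.378), so pairing by number is not settled. A block for those libraries gave 210 DEGs at 1 uM and 1412 genes for the difference, both chosen after seeing the data. The block ended no named gene's call against PBS, but it ended the difference from 5 Day for MMP3 and MMP10 (adjusted p = 0.0691 and 0.0581).

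Of 46 tested named genes, 15 no longer passed with all 5 conditions and 0 to 4 when 1 library was left out, while 8 had no adjusted p in DESeq2. Depth limits statements on genes near the filter, such as DRD1, and DRD5 could not be tested.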

Other observations

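Further genes, named here after their values were seen, moved as well. NEAT1, the lncRNA scaffold of paraspeckles, rose from 11.97, 12.7 and 8.73 TPM in PBS to 42.03, 51.5 and 48.4 TPM in Chronic 1 h (log2 1.76 ± 0.11, adjusted p = 8.58e-06), and was at 14.04, 12.5 and 16.5 TPM at 24 h. CSF1, the growth factor of macrophages and microglia, rose from 6.44, 5.89 and 6.05 to 21.5, 24.9 and 18.8 TPM (log2 1.80, adjusted p = 8.01e-06), with groups that did not overlap. Some replication-dependent histone genes rose, H2AC6 by 2.62, H4C8 by 1.90 and H4C5 by 2.07. H4C15 rose by 1.73 but had 3.66% unique reads.

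HTR2C and CLIC6, which are expressed in choroid plexus, fell alongside TTR, HTR2C from 358, 395 and 154 to 130.2, 176 and 94.96 TPM and CLIC6 from 39.6, 43.1 and 16.5 to 12.5, 21.4 and 10.4 TPM (adjusted p = 0.0107 and 0.0329). In both the PBS and Chronic 1 h values overlapped, PBS replicate 3 being the lowest control.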
